A study of Mus musculus with 19 samples.

Results

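The genes that encode the proteasome and the proteins that activate, inhibit or assemble it were followed in gastrocnemius, a calf muscle of the mouse, by polyA-selected RNA sequencing. They were taken as every gene whose symbol is Psm followed by a letter from a to g and a digit, with at least 1 RPKM (reads per kilobase of gene and per mega of reads) in at least 5 libraries. Of 13067 genes listed, 47 have such a symbol, and all 47 were among the 11141 genes that passed the filter on level. One of them, Psmc3ip, matches by symbol only, because its protein is a cofactor of meiotic recombination. The other 46 fell into 9 classes: 7 alpha and 7 constitutive beta subunits of the 20S core, 3 immunoproteasome beta subunits, 6 ATPases and 11 non-ATPase subunits of the 19S cap, 3 assembly chaperones of the 19S base, 4 assembly chaperones of the 20S core, 4 activators and 1 inhibitor. All 46 were above 1 RPKM in all 19 libraries except Psmb9, which was above it in 17. Psma8 and Psmb11 were not analysed here.

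The libraries came from 3 groups, 7 from control mice without a tumour, 7 from tumour-bearing mice given vehicle and 5 from tumour-bearing mice given rolipram. Mice with a tumour were Balb/c males, 2 months old, injected subcutaneously in the right flank with C26 murine adenocarcinoma cells. C26 is a colon carcinoma line used to model cachexia, in which muscle and fat waste during cancer. From day 4 they were injected intraperitoneally with rolipram at 3 mg/kg, or with its vehicle, dilute ethanol in saline. Rolipram inhibits phosphodiesterase 4, an enzyme family that breaks down cyclic AMP. The labels give no strain, sex, age or injection for the controls, so the effect of the tumour cannot be told apart from that of the vehicle injection or of any such difference. The labels also do not say that each library came from a separate animal, and p-values therefore measure the spread between these libraries. The 10 muscle fibre markers examined, among them the muscle creatine kinase Ckm, were all present, and their summed RPKM was 69320 to 85260 in controls and 47009 to 72431 over the tumour-bearing libraries.

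The 26S proteasome degrades proteins tagged with ubiquitin. Its 20S core is a stack of rings in which alpha subunits form the gate and beta subunits carry the proteolytic sites, and its 19S cap binds ubiquitin chains, removes them and unfolds the substrate with a ring of ATPases. In muscle it breaks down contractile proteins during atrophy, and its genes are known to respond together to transcription factors of the Nfe2l1 and Nfe2l2 family. Interferon replaces the catalytic subunits Psmb5, Psmb6 and Psmb7 by Psmb8, Psmb9 and Psmb10, which makes the immunoproteasome, and it also induces Psme1 and Psme2, which form the PA28 alpha/beta activator used in antigen processing.

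The promoters of 5 members are shown because the results turn on these genes. Psma7 and Psmd4 rose most under the tumour, Psmb5 and Psmb8 are the constitutive and the interferon-induced form of 1 catalytic site, and Psme4 rose under the tumour and was the member that fell most with rolipram. The sequences are from RefSeq on build GRCm38.p6, run 5′ to 3′ on the strand of the gene and end at the base before its RefSeq start. Capitals mark the letters of a motif that was searched for. Psma7 (chr2:180042465-180042664, minus strand) holds a CCAAT box, Psmb5 (chr14:54617996-54618145, minus strand) an antioxidant response element, Psmd4 (chr3:95042615-95042764, minus strand) a CCAAT box on the opposite strand and an interferon-stimulated response element, and Psmb8 (chr17:34198045-34198194, plus strand) a STAT-binding palindrome. Psme4 (chr11:30771625-30771774, plus strand) has no capitals because its 1 match, to the antioxidant response element, runs across the RefSeq start. The GENCODE annotation places some starts elsewhere. It begins Psmb8 at chr17:34197721, so the printed Psmb8 stretch and its palindrome lie inside that gene and not before it. The stretches of Psmb5 and Psme4 run partly past their GENCODE starts, at 54618022 and 30771726.
Psma7: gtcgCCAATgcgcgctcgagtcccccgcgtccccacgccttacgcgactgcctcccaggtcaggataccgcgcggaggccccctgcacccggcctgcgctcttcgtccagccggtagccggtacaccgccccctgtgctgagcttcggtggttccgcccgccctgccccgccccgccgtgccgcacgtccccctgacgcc
Psmb5: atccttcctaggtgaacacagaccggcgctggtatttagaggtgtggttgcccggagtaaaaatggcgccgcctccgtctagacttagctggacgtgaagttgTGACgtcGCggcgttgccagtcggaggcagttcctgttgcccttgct
Psmd4: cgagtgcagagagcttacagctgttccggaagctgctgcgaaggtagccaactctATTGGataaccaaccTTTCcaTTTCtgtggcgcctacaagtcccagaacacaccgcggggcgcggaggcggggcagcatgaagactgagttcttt
Psmb8: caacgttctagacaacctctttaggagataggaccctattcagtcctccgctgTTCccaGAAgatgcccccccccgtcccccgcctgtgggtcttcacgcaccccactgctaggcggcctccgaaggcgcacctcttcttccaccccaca
Psme4: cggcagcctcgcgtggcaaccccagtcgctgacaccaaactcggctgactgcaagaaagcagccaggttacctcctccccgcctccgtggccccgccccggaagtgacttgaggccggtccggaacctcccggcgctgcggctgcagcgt

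Motifs were searched on both strands in windows of 300 bases, 250 before and 50 after each RefSeq start. Of these windows, 42 belonged to 39 of the 46 members and 32851 to all genes. The antioxidant response element TGACNNNGC, the site of Nfe2l1 and Nfe2l2, was found in 6 member windows (14.3%) and in 12.4% of all windows. The 6 are those of Psmb5, Psmb6, Psmc6, Psmd12, Psmd9 and Psme4. The CCAAT box, the site of the Nfy complex, was found in 13 member windows (31.0%) against 37.4% of all windows. Of the 8 windows of alpha subunits, 5 held it, but over all constitutive 20S and 19S subunits it was in 10 of 27 windows (37.0%), near the background. The interferon-stimulated response element, which is GAAA, any 2 bases and GAAA again, was found in 5 member windows (11.9%), those of Psmd4, Psmb3, Psmd9, Psmg4 and Psme1, against 3.44% of all windows, and the palindrome TTCNNNGAA in 3 (7.14%), those of Psmd2, Psmg1 and Psmb8, against 8.30%. The cyclic AMP response element TGACGTCA and the Foxo motif GTAAACA were in none of the member windows and in 1.79% and 3.65% of all windows. No matches of different motifs overlapped in the printed members. A match here is a run of letters and not a site shown to be used.

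Tumour-bearing vehicle muscle was compared with control muscle first, which asks how C26 cachexia moves each class. All 31 constitutive 20S and 19S subunits rose, by 1.61-fold (Psmb6) to 4.49-fold (Psma7 and Psmd4). The 7 assembly chaperones that match the symbol pattern did not follow them, and only Psmg4 rose, by 1.19-fold. Assembly factors without that symbol pattern are not among these 7. The immunoproteasome subunits did not rise, and Psmb10 fell to 0.706 of its control level. The activators split, with Psme4 and Psme3 higher and Psme1 lower. Of the 46 members, 35 rose (background 43.3% of all genes tested), 2 fell (background 23.8%) and 9 did not pass the test, which was limma on log2(RPKM + 1) with Benjamini-Hochberg adjustment over all genes and a threshold of 0.05. For 33 members every vehicle library lay above every control library (background 26.9%), and for 1 member every vehicle library lay below (background 12.2%). All genes together had a median log2 difference of 0.15 in this comparison, against 1.34 for the 31 constitutive 20S and 19S subunits. With libraries scaled by the median of ratios, which sets the median of all genes to 0.00 and takes the share of calls that are higher from 64.6% to 50.6%, the 31 subunits all still rose, with a median of 1.15.

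**Figure D1:**
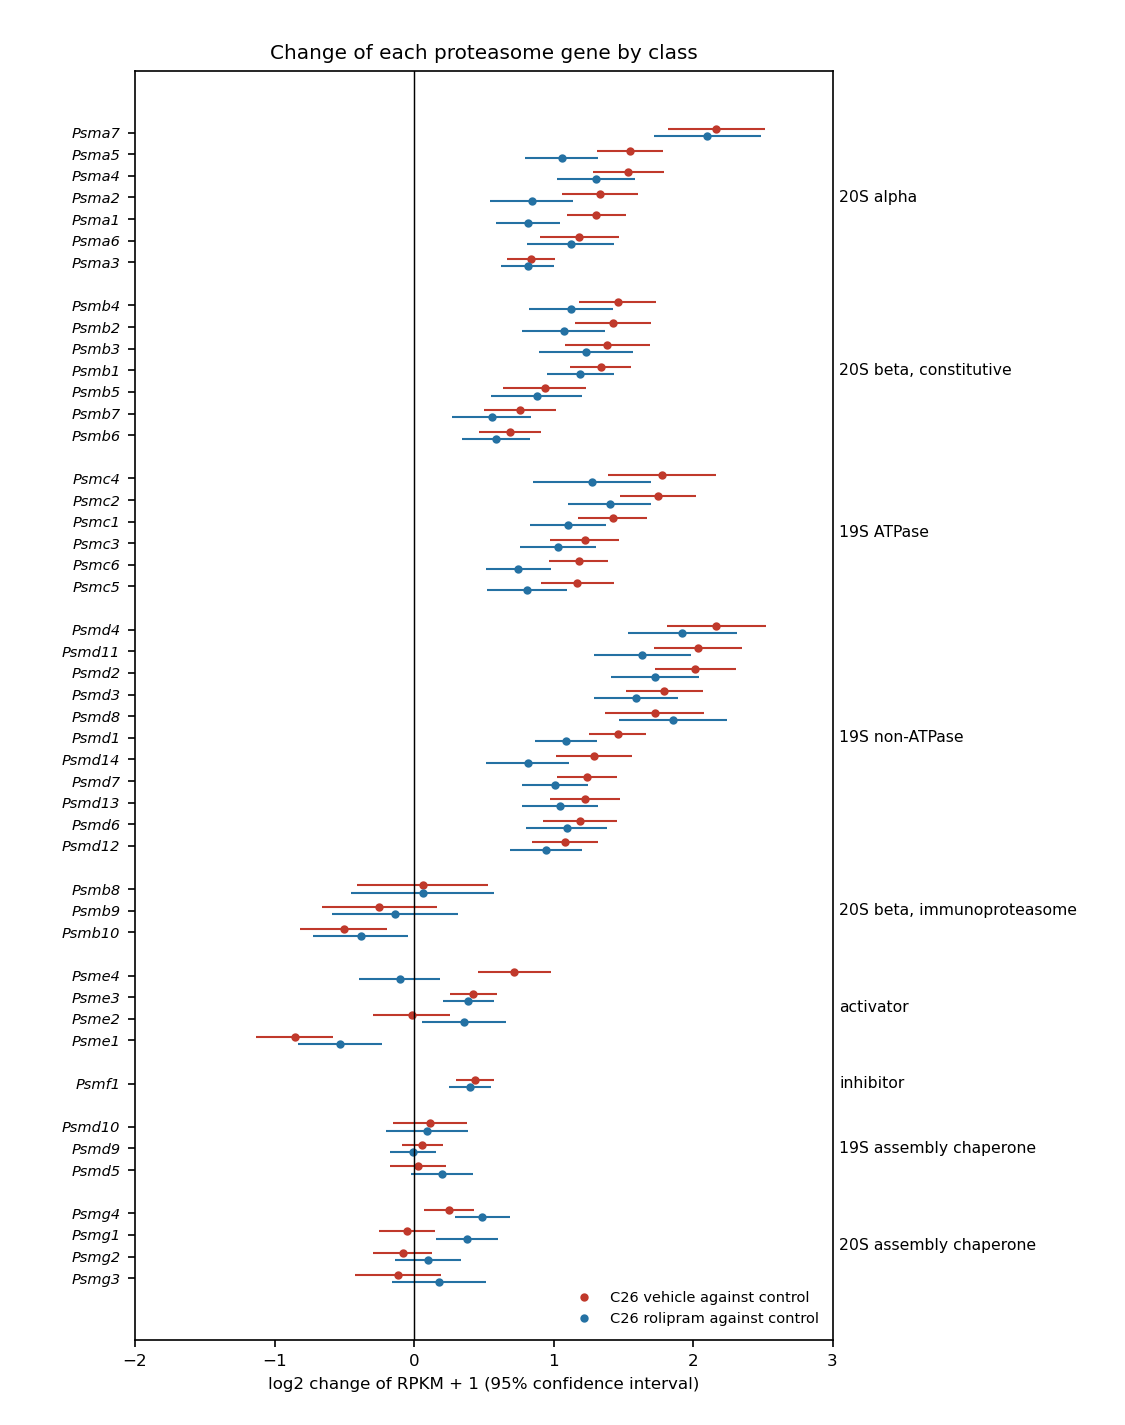
Log2 difference from control on the log2(RPKM + 1) scale, with its 95% confidence interval, for each of the 46 members in C26 vehicle (n = 7) and C26 rolipram (n = 5) against control (n = 7), grouped by class. The constitutive 20S and 19S subunits lie between 0.56 and 2.17, the immunoproteasome subunits lie at 0.06 or lower and the assembly chaperones at 0.49 or lower.

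The alpha subunits, which form the outer rings and the gate of the core, had a median log2 difference of 1.33. Psma7 (chr2:180036374-180042433, minus strand) stood at 74.4 to 81.4 RPKM in controls, with a median of 78.1, and at 195.5 to 491.5 RPKM in vehicle, with a median of 431.3. The lowest vehicle library was thus above all controls, and the spread in vehicle (SD 113, n = 7) was far wider than in controls (SD 2.14, n = 7). Its log2 difference was 2.17 ± 0.17 (SE, adjusted p = 1.21e-09). Psma3 changed least in the class, from 30.8 ± 2.88 RPKM in controls to 56.0 ± 6.12 in vehicle (SD, n = 7 each), a log2 difference of 0.84 (adjusted p = 4.14e-08), and its groups also did not overlap.

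The constitutive beta subunits had a median of 1.34, and the 3 that carry the proteolytic sites changed least in the class. Psmb5, the chymotrypsin-like subunit (chr14:54614119-54618022, minus strand), stood at 28.8 to 32.1 RPKM in controls, median 30.3, and at 35.8 to 84.4 in vehicle, median 59.0. Its groups did not overlap, and the log2 difference was 0.94 ± 0.14 (SE, adjusted p = 8.79e-06). Psmb6, the caspase-like subunit (chr11:70525367-70527858, plus strand), went from 142.9 to 188.7 RPKM, median 157.8, in controls to 182.0 to 312.3, median 253.4, in vehicle. It was the only one of the 31 whose groups overlapped, with the lowest vehicle library, vehicle 7, below the highest control, and its log2 difference was 0.69 ± 0.11 (adjusted p = 1.24e-05). Psmb7, the trypsin-like subunit (chr2:38588036-38644087, minus strand), went from 154.0 to 195.4 RPKM, median 172.0, to 206.3 to 363.2, median 340.0, with no overlap and a log2 difference of 0.76 (adjusted p = 1.86e-05). Psmb4, a subunit with no proteolytic site, changed most, with 104 ± 2.60 RPKM in controls and 297 ± 71.7 in vehicle (SD, n = 7 each) and a log2 difference of 1.46 (adjusted p = 1.15e-08). Psmb7 and Psmb6 were the most abundant members in controls, at ranks 1 and 2 of 46 by mean RPKM, and stood at ranks 4 and 6 in vehicle.

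The 6 ATPases, which form the unfolding ring of the cap, had a median of 1.32. Psmc4 changed most, from 53.2 to 59.3 RPKM, median 54.5, in controls to 93.1 to 263.2, median 252.2, in vehicle. Its groups were far apart, with a log2 difference of 1.77 ± 0.19 (SE, adjusted p = 8.08e-08). Psmc5 changed least, with 87.4 ± 3.08 RPKM in controls and 203 ± 47.1 in vehicle (SD, n = 7 each) and a log2 difference of 1.17 (adjusted p = 1.13e-07).

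The 11 non-ATPase subunits had the highest median of any class, 1.46. Psmd4, a ubiquitin receptor of the cap (chr3:95032694-95042614, minus strand), stood at 65.2 to 72.2 RPKM in controls, median 68.4, and at 175.3 to 425.5 in vehicle, median 376.7. Its groups did not overlap and its log2 difference was 2.17 ± 0.17 (SE, adjusted p = 1.65e-09). The lid subunit Psmd11 (chr11:80428615-80473248, plus strand) was at 32.1 ± 1.99 RPKM in controls and 140 ± 42.6 in vehicle (SD, n = 7 each), with a log2 difference of 2.04 (adjusted p = 7.44e-10). Another lid subunit, Psmd12, changed least in the class, from 39.1 ± 1.69 to 85.4 ± 16.4 RPKM, a log2 difference of 1.08 (adjusted p = 7.97e-08). Unequal changes reordered the members: by mean RPKM, Psmd2, Psma7 and Psmd4 were at ranks 7, 11 and 13 in controls and at ranks 1, 2 and 3 in vehicle. Those 3 vehicle means, of 373 ± 101, 371 ± 113 and 328 ± 102 RPKM (SD, n = 7 each), lay within each other's spread.

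The vehicle libraries did not respond alike. As the median over the 31 subunits of log2(RPKM + 1) minus the control mean, vehicle 1 to 7 gave 1.66, 1.16, 1.50, 1.62, 1.61, 1.19 and 0.80, and the 7 controls lay between -0.09 and 0.10. Vehicle 7 was the lowest vehicle library for 31 of 31 subunits, and vehicle 1, 3, 4 and 5 were the highest 4 for 27 of 31, the exceptions being Psma3, Psmb5, Psmb6 and Psmd14. The summed RPKM of the 31 was 2077 ± 103 in controls and 5744 ± 1294 in vehicle (SD, n = 7 each). In whole muscle, fewer cells of a type and less RNA per cell cannot be told apart. Vehicle 7 also had the highest summed RPKM of 9 macrophage markers, 218, against 76.7 to 163 in the other vehicle libraries and 28.0 to 124 in controls. Of these markers 8 were tested, and 7 of them rose under the tumour (background 43.3%). The 5 erythroid markers summed to 310 to 1012 RPKM in vehicle and 90.6 to 246 in controls. Vehicle 7 was also the highest vehicle library in the sums of the erythroid (1012 RPKM), fibroblast (414), endothelial (81.3) and neutrophil (19.03) markers, where the other vehicle libraries reached at most 722, 286, 67.9 and 9.99. In the muscle fibre markers vehicle 7 was not the lowest, with a sum of 67629 RPKM. The lowest vehicle sum was 47210, in vehicle 3, and the highest 72431, in vehicle 2. The part of all these markers in the results was not tested.

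**Figure D2:**
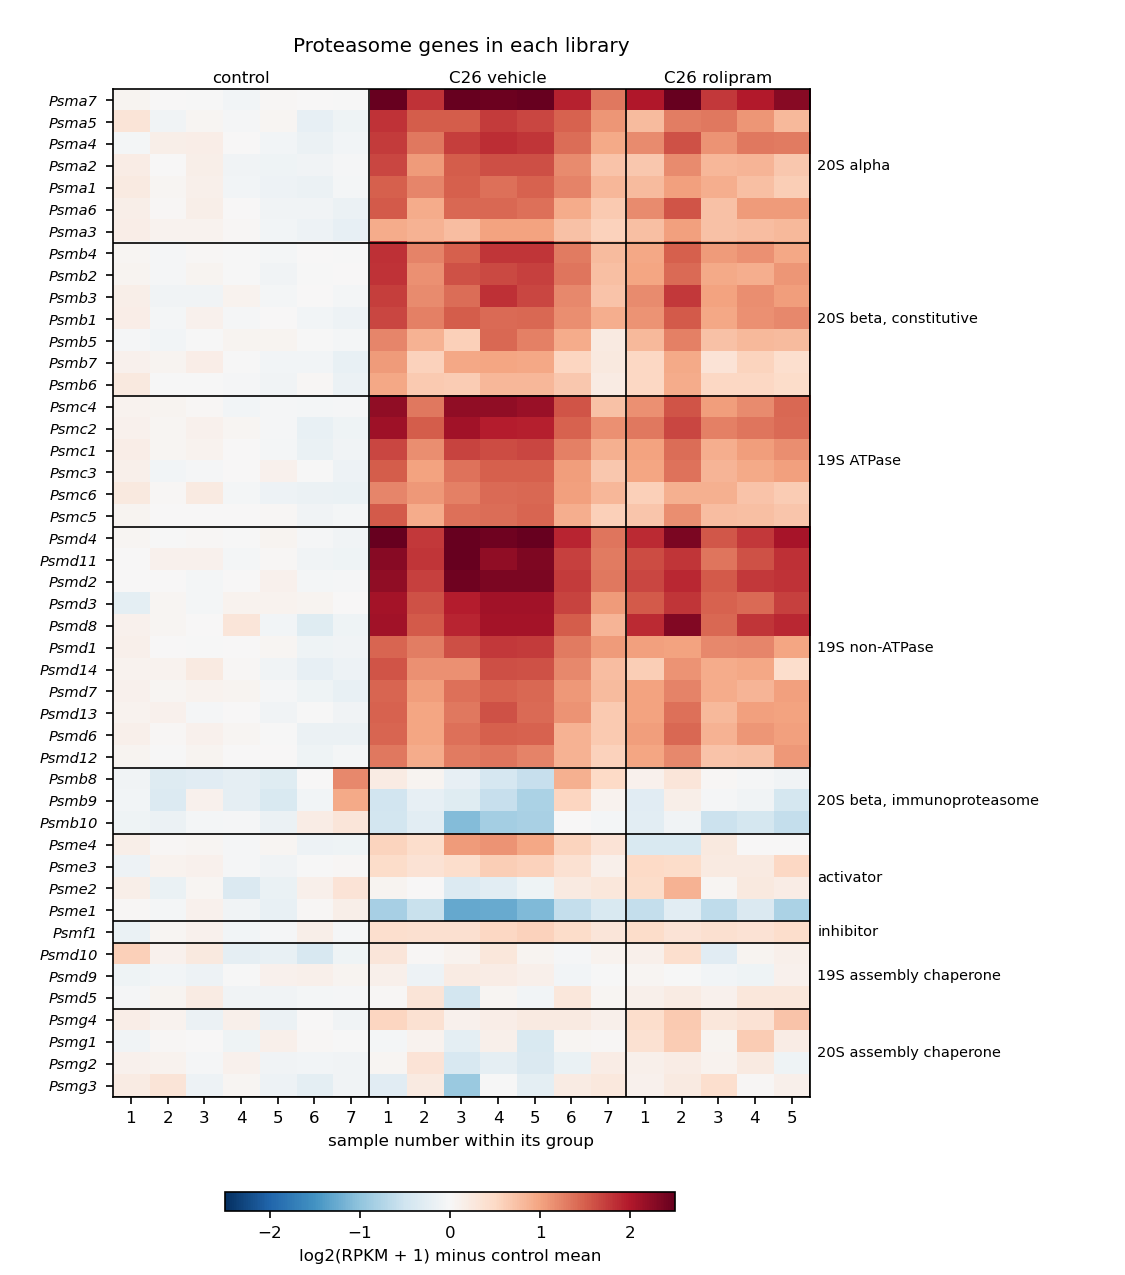
Each row is 1 of the 46 members and each column 1 of the 19 libraries, with colour giving log2(RPKM + 1) minus the control mean of that member. The constitutive 20S and 19S rows are above the control mean in the tumour-bearing libraries, vehicle 7 is the lowest vehicle library in all 31 of them, and the immunoproteasome rows are high in control 7.

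The immunoproteasome subunits stayed at a low level throughout. Psmb8 (chr17:34197721-34201454, plus strand) stood at 2.45 to 8.97 RPKM in controls, median 2.71, and at 1.91 to 6.93 in vehicle, median 3.50. The groups overlapped, the highest values were those of control 7 and vehicle 6, and the log2 difference was 0.06 with a 95% interval of -0.41 to 0.53 (adjusted p = 0.817). Psmb9 (chr17:34181987-34187764, minus strand) was at 2.03 ± 1.17 RPKM in controls and 1.54 ± 0.846 in vehicle (SD, n = 7 each), a log2 difference of -0.25 with an interval of -0.66 to 0.16 (adjusted p = 0.275). Psmb10 was at 7.05 to 9.94 RPKM in controls, median 7.60, and at 3.20 to 7.92 in vehicle, median 5.46. Vehicle 6 and 7 lay inside the control range, and the log2 difference was -0.50 ± 0.15 (SE, adjusted p = 0.00558).

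The share of each interferon-induced subunit relative to the constitutive subunit it replaces was taken as a ratio within a library, which no scaling of libraries can change. For Psmb8 over Psmb5 the log2 ratio was -3.23 ± 0.692 in controls and -4.11 ± 0.953 in vehicle (SD, n = 7 each), and the difference of -0.88 did not pass (exact permutation test, two-sided, adjusted p = 0.114 over 15 tests). The groups overlapped because vehicle 6 and 7, at -3.09 and -2.81, lay above all controls except control 7, which was at -1.71. For Psmb9 over Psmb6 it was -6.43 ± 0.697 and -7.54 ± 0.910, a difference of -1.11 (exact permutation test, adjusted p = 0.0492). For Psmb10 over Psmb7 it was -4.46 ± 0.288 and -5.82 ± 0.782, a difference of -1.36, and every vehicle library lay below every control (exact permutation test, adjusted p = 0.00437, from the smallest p that 3432 assignments allow, 0.000583). In median terms Psmb10 stood at 4.27% of Psmb7 in controls and at 1.50% in vehicle. The call for Psmb9 over Psmb6 is fragile: it was lost without control 1, 3, 4, 5, 6 or 7 or vehicle 1, 2, 3, 4 or 5 in turn, with adjusted p up to 0.101, and the call that Psmb8 over Psmb5 missed was made without vehicle 7 (adjusted p = 0.0253).

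**Figure D3:**
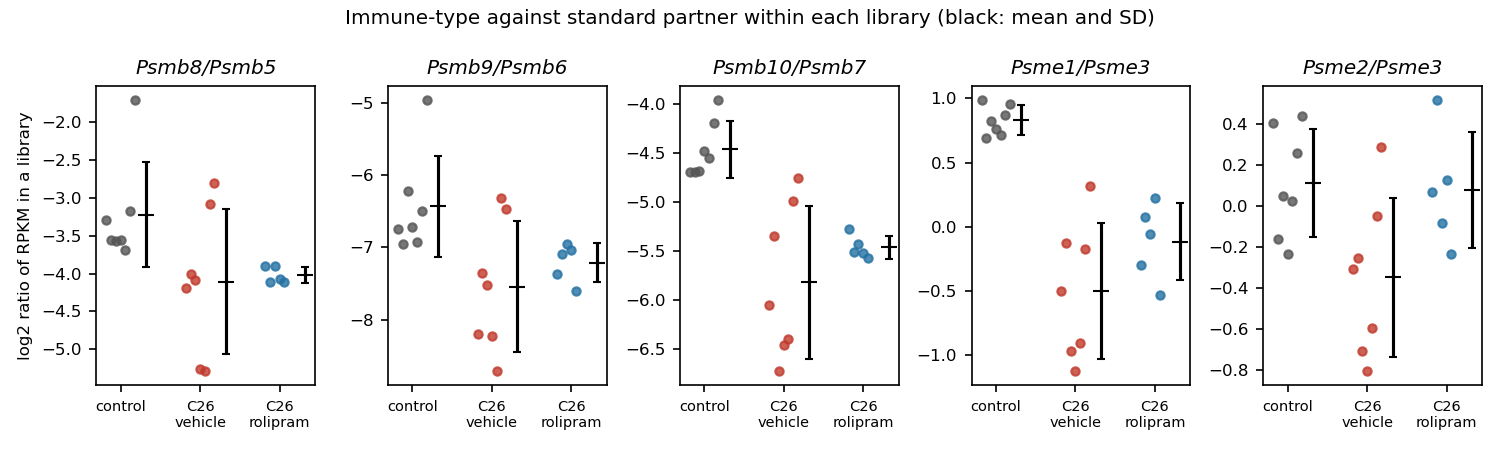
Log2 ratio of 2 RPKM values within a library for 3 pairs of interferon-induced over constitutive beta subunits and for Psme1 and Psme2 over Psme3, as 1 point per library with the mean and SD of control (n = 7), C26 vehicle (n = 7) and C26 rolipram (n = 5). Psmb10 over Psmb7 and Psme1 over Psme3 are lower in every tumour-bearing library than in any control.

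The control library and the vehicle library highest in Psmb8 were also the highest of their groups in Ptprc, whereas rolipram 2, the highest rolipram library in Psmb8 at 4.29 RPKM, was the lowest of its group in Ptprc. Ptprc, the pan-leukocyte antigen and the only one of 8 leukocyte and lymphocyte markers listed, was at 8.37 RPKM in control 7 and 0.14 to 0.76 in the other controls. It was at 4.22 RPKM in vehicle 6, at 1.602 in vehicle 7 and at 0.24 to 0.57 in the other vehicle libraries, and at 0.21 to 0.44 in rolipram libraries. Without control 7 and vehicle 6, the libraries highest in Ptprc, the difference in the log2 ratio was -1.41 for Psmb10 over Psmb7 and -1.07 for Psmb9 over Psmb6, and as many members rose and fell as with all libraries. Vehicle 7, the next vehicle library in Ptprc, was kept in. The part of leukocyte RNA in these results was therefore not tested.

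Among the activators, Psme1, the alpha subunit of PA28 (chr14:55578123-55581529, plus strand), stood at 34.9 to 44.5 RPKM in controls, median 40.8, and at 15.8 to 30.6 in vehicle, median 22.2. All vehicle libraries lay below all controls, and the log2 difference was -0.86 ± 0.13 (SE, adjusted p = 1e-05). Its partner Psme2 was at 24.5 ± 4.22 and 24.2 ± 4.09 RPKM (SD, n = 7 each), with a log2 difference of -0.02 and an interval of -0.29 to 0.26 (adjusted p = 0.922). Psme3, the nuclear PA28 gamma (chr11:101316213-101323537, plus strand), stood at 20.5 to 24.4 RPKM in controls, median 22.3, and at 24.5 to 35.1 in vehicle, median 30.9, with no overlap and a log2 difference of 0.42 (adjusted p = 0.000105), which under quantile normalisation was 0.11 and did not pass (adjusted p = 0.112). That normalisation made Psme2 lower, at -0.33 (adjusted p = 0.0322). Within a library, Psme1 was at a median of 177% of Psme3 in controls and 70.7% in vehicle, and the log2 ratio differed by -1.33 (exact permutation test, adjusted p = 0.00437, the smallest reached in these 15 tests). The log2 ratio of Psme2 over Psme3 differed by -0.46 (exact permutation test, adjusted p = 0.0492), a call lost without any 1 of control 1, 3, 5, 6 or 7 or vehicle 1 to 5, with adjusted p up to 0.101, and lost without control 7 and vehicle 6 (adjusted p = 0.0812).

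Psme4 encodes PA200, a large activator that binds the end of the core (chr11:30771726-30880361, plus strand). It stood at 45.1 to 54.4 RPKM in controls, median 50.1, and at 62.5 to 107.8 in vehicle, median 72.8. All vehicle libraries were above all controls, vehicle 7 being the lowest and vehicle 4 the highest, with a log2 difference of 0.72 ± 0.13 (SE, adjusted p = 4.9e-05). The inhibitor Psmf1, or PI31 (chr2:151715812-151744186, minus strand), went from 3.56 to 4.66 RPKM, median 4.04, to 5.28 to 6.66, median 5.89, also without overlap and with a log2 difference of 0.44 (adjusted p = 6.46e-06).

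The assembly chaperones of the 19S base, Psmd5, Psmd9 and Psmd10, and those of the 20S core, Psmg1 to Psmg4, had a median log2 difference of 0.03, and their summed RPKM was 59.2 ± 3.56 in controls and 61.4 ± 6.40 in vehicle (SD, n = 7 each). Psmd5 was at 4.69 ± 0.430 and 4.87 ± 0.984 RPKM, with a log2 difference of 0.03 and an interval of -0.17 to 0.23 (adjusted p = 0.8). Psmd9 was at 6.54 ± 0.534 and 6.87 ± 0.693 RPKM (adjusted p = 0.462), and Psmd10 at 6.35 ± 1.82 and 6.81 ± 0.703 (adjusted p = 0.433). The upper ends of the 3 intervals, 0.23, 0.21 and 0.38, lay below the smallest change among the 31 subunits, 0.69. Psmg1, which pairs with Psmg2 to build the alpha ring, was at 8.01 ± 0.494 and 7.74 ± 1.07 RPKM (adjusted p = 0.65). Psmg2 was at 16.8 ± 1.18 and 16.0 ± 3.36 (adjusted p = 0.492), and Psmg3 at 4.60 ± 0.813 and 4.32 ± 1.36 (adjusted p = 0.518). Psmg4 went from 10.9 to 13.9 RPKM, median 12.3, to 13.2 to 18.2, median 14.4. Its groups overlapped, and the log2 difference of 0.25 passed (adjusted p = 0.0155) but was lost under median-of-ratios scaling, at 0.08 (adjusted p = 0.462). Quantile normalisation took Psmg4 to -0.0013 (adjusted p = 0.989), and under it Psmg1 and Psmg2 fell, by 0.25 (adjusted p = 0.0251) and 0.36 (adjusted p = 0.0106).

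**Figure D4:**
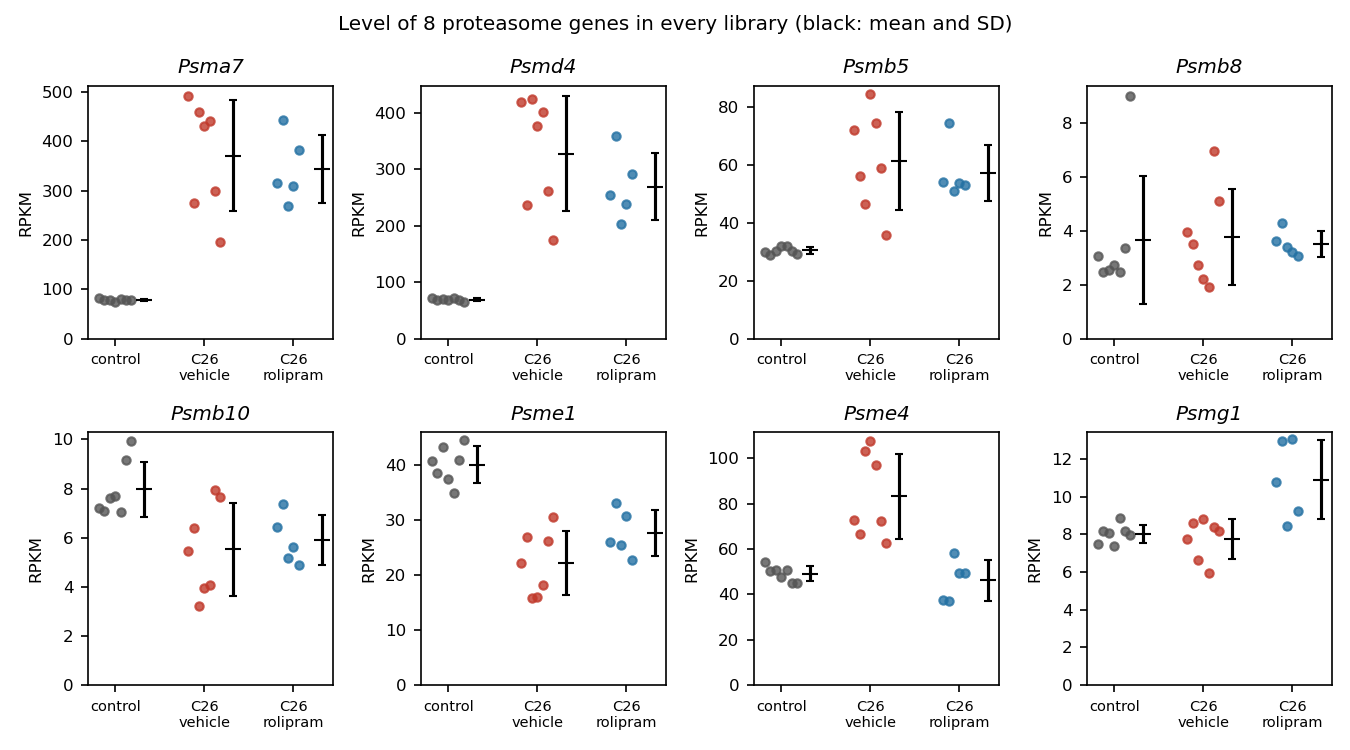
RPKM of 8 members in each library of control (n = 7), C26 vehicle (n = 7) and C26 rolipram (n = 5), with points for libraries and lines for the mean and SD. Psma7 and Psmd4 rise from at most 81.4 RPKM in controls to between 175.3 and 491.5 in vehicle, Psme1 falls, Psme4 is high in vehicle only, and Psmb8 and Psmb10 show high values in control 7 and vehicle 6.

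Psmc3ip, the symbol match outside the proteasome, fell from 1.45 ± 0.270 RPKM in controls to 0.770 ± 0.214 in vehicle (SD, n = 7 each), a log2 difference of -0.47 (adjusted p = 9.27e-05). These values rest on few reads, an estimated 19.3 in the lowest library.

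Rolipram was compared with vehicle in tumour-bearing mice, which asks whether the drug moves the proteasome genes. Cyclic AMP itself was not measured in these libraries. Most of the 31 subunits stayed high: 6 fell, by 0.37 to 0.49 on the log2 scale, and the others did not pass the test. Psme4 fell further, to 0.565 of its vehicle level, and the chaperone Psmg1 rose 1.35-fold. Over the 46 members, 7 fell (background 7.32%), 1 rose (background 9.78%) and 38 did not pass, by limma with Benjamini-Hochberg adjustment. In 1 member, Psme4, every rolipram library was below every vehicle library (background 1.8%), and in none was every rolipram library above (background 2.27%). The median log2 difference of the 31 was -0.23, against -0.01 for all genes. The limma fit took 1 spread per gene from all 19 libraries, so the tighter controls entered the p-values of this comparison. The summed RPKM of the 31 had an SD of 103 in controls, 1294 in vehicle and 672 with rolipram. With only the 2 groups in the fit, Psma2, Psma5, Psmd1 and Psmd14 did not pass (limma, adjusted p = 0.0852, 0.052, 0.0938 and 0.0886). This comparison uses the same vehicle libraries as the comparison with control, so a high or low vehicle library enters both. The 5 erythroid markers summed to 202 to 551 RPKM with rolipram against 310 to 1012 with vehicle. In limma all 5 were lower at an unadjusted p below 0.05, and 1 after adjustment (background 7.32%). For the unadjusted count no share of all genes is given here. The part of these markers in the results was not tested.

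Single libraries decided how many members passed: without vehicle 7, the lowest of its group for all 31, 21 members passed, 18 of them lower, and without vehicle 5 or without rolipram 1 only 5 passed. The share of all genes that passed in these refits is not given here, so the counts cannot be set against a background. Without vehicle 7, Psmc4, the ATPase with the largest rise under the tumour, fell by 0.67 (adjusted p = 0.00442), whereas with all libraries its log2 difference of -0.50 did not pass (adjusted p = 0.0945).

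The 6 subunits that fell were Psma1, Psma2, Psma5, Psmc6, Psmd1 and Psmd14. Psma1, an alpha subunit, was at 87.7, 103.8, 95.01, 85.2 and 77.6 RPKM in the rolipram libraries and at 90.7 to 144.4, median 132.4, in vehicle. The groups overlapped only through vehicle 7, the lowest vehicle library, and the log2 difference was -0.49 with an interval of -0.72 to -0.26 (adjusted p = 0.00647). All rolipram libraries remained above the highest control, at 58.7 RPKM. Psma5, another alpha subunit, was at 66.1, 92.1, 95.4, 81.9 and 66.5 RPKM against 81.8 to 134.5, median 109.7, a log2 difference of -0.49 (adjusted p = 0.0127). The ATPase Psmc6 was at 67.3, 83.0, 83.0, 73.3 and 68.6 RPKM against 78.8 to 121.0, median 104.2, a log2 difference of -0.43 (adjusted p = 0.0124). Both overlapped vehicle at its low end. In a limma fit of these 2 groups alone Psma5 did not pass (adjusted p = 0.052). Without the deepest libraries, vehicle 3 and rolipram 1, neither Psma5 nor Psmc6 passed in limma (adjusted p = 0.0627 and 0.063).

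The calls for Psma2, Psmd1 and Psmd14 also changed when single libraries were left out. Each was lost as well in the fit of these 2 groups alone and without the deepest libraries. Psma2 was at 50.9 ± 7.77 RPKM with rolipram (SD, n = 5) and 73.3 ± 17.1 with vehicle (n = 7), a log2 difference of -0.49 (adjusted p = 0.0234). Psmd1, a scaffold of the 19S base, was at 106 ± 8.64 and 139 ± 24.8 RPKM, a log2 difference of -0.37 (adjusted p = 0.0236). Psmd14, the deubiquitinase of the cap, was at 67.2 ± 12.9 and 94.4 ± 19.9 RPKM, a log2 difference of -0.48 (adjusted p = 0.0277). The call for Psma2 was lost without vehicle 5, rolipram 1 or rolipram 5, that for Psmd1 without vehicle 4, vehicle 5, rolipram 1 or rolipram 2, and that for Psmd14 without vehicle 1, 4 or 5 or rolipram 1 or 5, with adjusted p up to 0.0803.

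The 4 subunits that rose most under the tumour, Psma7, Psmd4, Psmd11 and Psmd2, did not pass against vehicle with all libraries. Psma7 was at 315.2, 442.9, 269.1, 310.2 and 382.0 RPKM in the rolipram libraries, inside the vehicle range, with a log2 difference of -0.06 and an interval of -0.44 to 0.32 (adjusted p = 0.839). Psmd4 was at 254.2, 358.6, 203.6, 237.9 and 291.5 RPKM, also inside the vehicle range, with a log2 difference of -0.24 (adjusted p = 0.389). Psmd11 had a log2 difference of -0.40 (adjusted p = 0.101) and Psmd2 of -0.29 (adjusted p = 0.2), and both passed as lower without vehicle 7, at -0.52 (adjusted p = 0.0114) and -0.40 (adjusted p = 0.026). The catalytic subunit Psmb5, among the smaller rises, did not pass either: it was at 54.1, 74.4, 51.0, 53.8 and 53.1 RPKM, with a log2 difference of -0.06 (adjusted p = 0.824).

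Psme4 was at 37.4, 37.2, 58.4, 49.3 and 49.2 RPKM with rolipram, against 62.5 to 107.8 in vehicle and 45.1 to 54.4 in controls. The rolipram libraries thus all lay below the lowest vehicle library, with 2 below, 2 within and 1 above the control range. The log2 difference from vehicle was -0.82 ± 0.14 (SE, interval -1.11 to -0.53, adjusted p = 0.00101), and leaving out any single library kept it between -0.91 and -0.75 with adjusted p of at most 0.00549. From control it was -0.10 with an interval of -0.39 to 0.19 (adjusted p = 0.552), and under quantile normalisation -0.38 (adjusted p = 0.0315). The other activators did not pass against vehicle: Psme1 was at 25.98, 33.2, 25.5, 30.8 and 22.7 RPKM with a log2 difference of 0.33 (adjusted p = 0.121), Psme2 at 33.5, 44.9, 25.1, 28.9 and 27.8 RPKM with 0.38 (adjusted p = 0.0787), and Psme3 at 29.8 ± 3.08 RPKM (SD, n = 5) with -0.04 (adjusted p = 0.807). Psme1 and Psme2 passed without vehicle 7, at 0.41 (adjusted p = 0.0365) and 0.43 (adjusted p = 0.043), and Psme2 also without rolipram 3, at 0.45 (adjusted p = 0.0392).

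Psmg1 (chr16:95979933-95990960, minus strand) was at 10.8, 12.9, 8.44, 13.0 and 9.22 RPKM with rolipram and at 5.93 to 8.79, median 8.18, in vehicle. Rolipram 3 lay within the vehicle range and the other rolipram libraries above it, with a log2 difference of 0.43 ± 0.11 (SE, adjusted p = 0.00986). In a fit of these 2 groups alone it did not pass (adjusted p = 0.0529). The immunoproteasome subunits Psmb8, Psmb9 and Psmb10 had log2 differences of -0.00, 0.11 and 0.12 from vehicle (adjusted p = 0.998, 0.755 and 0.641). None of the 5 ratios passed between rolipram and vehicle in the exact permutation tests, where the smallest unadjusted p was 0.0657, for Psme2 over Psme3. Without vehicle 7 that ratio passed, at a log2 difference of 0.53 (exact permutation test, adjusted p = 0.0253).

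Rolipram-treated tumour-bearing muscle was last set against control muscle, with the same control libraries as above and not as independent evidence. All 31 constitutive 20S and 19S subunits were higher, with no overlap between the groups (background 24.7%), by a log2 difference of 0.56 (Psmb7, adjusted p = 0.00161) to 2.10 (Psma7, adjusted p = 1.59e-08) and a median of 1.09. Under quantile normalisation Psmb7 did not pass, at 0.23 (adjusted p = 0.0922). Of the 46 members, 36 were higher (background 38.5%), 1 was lower (background 16.4%) and 9 did not pass. The 1 lower member was Psme1, at a log2 difference of -0.53 (adjusted p = 0.00407), with all 5 rolipram libraries below all controls (background 10.7%). As medians over the 31 subunits, rolipram 1 to 5 lay 1.00, 1.39, 0.93, 1.06 and 1.03 above the control mean, with rolipram 2 the highest library for 27 of 31 subunits.

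Of the chaperones, Psmg4 and Psmg1 were higher than in controls. Psmg4 was at 17.0, 19.8, 15.1, 16.1 and 20.7 RPKM, all above the highest control of 13.9, with a log2 difference of 0.49 (adjusted p = 0.000227). Psmg1 had a log2 difference of 0.38 (adjusted p = 0.00473). Psme3, at 0.39 (adjusted p = 0.000911), and Psmf1, at 0.40 (adjusted p = 8.25e-05), were also higher. Psme2 was at 0.36 (adjusted p = 0.0413), a call lost without control 2, 3, 4 or 5 or rolipram 1 or 2, with adjusted p up to 0.163. Under median-of-ratios scaling Psme3, Psme2 and Psmg1 did not pass (adjusted p = 0.0515, 0.314 and 0.128). Psmb10, at 6.43, 7.39, 5.16, 5.60 and 4.90 RPKM against 7.05 to 9.94 in controls, had a log2 difference of -0.38 that did not pass (adjusted p = 0.054), but did pass under that scaling, at -0.55 (adjusted p = 0.00632), and without vehicle 3, 6 or 7 or rolipram 2, with adjusted p from 0.0294 to 0.0404.

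Within libraries, Psmb10 over Psmb7 was lower with rolipram than in controls by 1.00 on the log2 scale and Psme1 over Psme3 by 0.95, both without overlap (exact permutation test, adjusted p = 0.00473, from the smallest p that 792 assignments allow, 0.00126). Psmb8 over Psmb5 differed by -0.80 (exact permutation test, adjusted p = 0.0265) and Psmb9 over Psmb6 by -0.78 (exact permutation test, adjusted p = 0.0347), and Psme2 over Psme3 by -0.03 (exact permutation test, adjusted p = 0.845). Psmb8 over Psmb5 lost its call without rolipram 2, 4 or 5, and Psmb9 over Psmb6 without rolipram 1, 2, 4 or 5. Taken alone, Psmb8 and Psmb9 did not pass against control in any limma fit that left out 1 library. Their log2 differences in those fits were 0.003 to 0.26 and -0.21 to 0.02. The denominators Psmb5 and Psmb6 were higher in all of them, by 0.78 to 0.92 and 0.50 to 0.63. The rolipram libraries were close together in Psmb8 over Psmb5 (SD 0.108, n = 5), and the vehicle libraries were not (SD 0.953, n = 7).

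Genes of the same pathway that lack the symbol pattern gave the following counts. Of 9 other proteasome genes tested, 6 rose in vehicle against control (background 43.3%). The cap-bound thioredoxin-like protein Txnl1 rose by 1.6 on the log2 scale (adjusted p = 5.14e-10) and the deubiquitinase Usp14 by 1.24 (adjusted p = 1.09e-09). The ubiquitin receptor Adrm1 went from 38.5 ± 3.59 to 135 ± 36.0 RPKM (SD, n = 7 each, adjusted p = 8.71e-09). With rolipram, Usp14 and the proteasome adaptor Ecpas fell against vehicle, by 0.54 (adjusted p = 0.00217) and 0.52 (adjusted p = 0.00787), each with no overlap, and Sem1 rose by 0.37 (adjusted p = 0.0368).

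All 10 shuttle and unfoldase genes that deliver substrates rose in vehicle (background 43.3%), with a median of 1.07. Nploc4, a cofactor of the unfoldase Vcp, rose by 2.15, the ubiquitin shuttle Rad23b by 1.32, and Vcp itself by 0.94 (adjusted p = 3.92e-09). With rolipram 7 of the 10 fell against vehicle (background 7.32%), with a median of -0.43, and 1 rose (background 9.78%). Of 11 transcription factors and processing enzymes known to control proteasome genes, 7 rose (background 43.3%) and 2 fell (background 23.8%) in vehicle. Stat3 rose by 2.14 and Nfe2l2 by 0.96, and Nfyb, a subunit of the CCAAT-binding complex, fell by 1.02. With rolipram 5 of these 11 fell against vehicle (background 7.32%) and 1 rose (background 9.78%).

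Of 10 interferon-induced antigen processing genes tested, 4 rose in vehicle (background 43.3%), with a median of 0.17, close to the 0.15 of all genes. The peptide-loading factor Tapbp rose by 0.63 (adjusted p = 1.51e-06) and the class I molecule H2-K1 by 0.76 (adjusted p = 5.59e-05). With rolipram none of the 10 passed against vehicle in limma, and none had an unadjusted p below 0.05. The summed RPKM of this list was 312 in control 7 against 145 to 180 in the other controls, the same library that was high in Psmb8, Psmb9 and Psmb10.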

How the data were processed

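PolyA RNA of snap-frozen gastrocnemius was sequenced with a stranded mRNA kit, per the labels' protocols. The submitters' processing notes name STAR 2.5.3a, featureCounts 1.6.4 and the build mm10. The gene annotation, the strand setting, the RPKM tool and the choice of listed genes are not given in the sources used here. A deposited table holds RPKM per gene and library, computed by the authors. Library sizes of 16.5 to 45.3 M (mega) reads (means 19.9 in controls, 26.5 in vehicle, 25.1 in rolipram) were recovered from steps between low values, of which 100% were whole reads within 0.05 read, with a prior of 0.25 read; they are estimates, so no count test was run.

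Genes with at least 1 RPKM in at least 5 libraries were fitted as log2(RPKM + 1) in limma 3.58.1 (R 4.3.3, trend and robust moderation, all 19 libraries, group as the only term), two-sided, with Benjamini-Hochberg adjustment over 11141 genes and a threshold of 0.05. Fold changes on this scale understate those of low genes. Log2 ratios of 2 RPKM values per library were compared by exact permutation, adjusted over 15 tests. The fit was run on simulated data that gave each gene the same SD in all groups. That simulation therefore cannot show how the unequal spread of the real groups affects the calls. The labels do not pair same-numbered libraries and the data did not settle it, so no block was used in the main fit. Gene positions and overlaps are from GENCODE on GRCm38, and promoters from RefSeq, matched by symbol for 39 of 46 members. The strand setting being unknown, reads of genes that overlap another on the opposite strand cannot be separated. Such overlaps cover 25.5% of the exon bases of Psmd9, 21.2% of Psmc3ip, 14.7% of Psmb8 and 11.8% of Psmb7. Smaller ones include 10.1% of Psmd13, 8.25% of Psmc3 and 5.79% of Psmb9. On the same strand, where a strand setting would not separate them, 12.1% of Psmb5 lies under Mir686 and 9.68% of Psmg3 under Gm26938. Psmb5, Psmb6 and Psmb7 also have annotated pseudogenes, 4 in all, which can share reads.

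The members, classes and gene lists were chosen with earlier results of these data known. Named were the members of the 5 ratio pairs, the largest and smallest change of each class under the tumour, members not higher there, members called between rolipram and vehicle, and up to 3 genes per list with the smallest p. Psmd2, Psmd11, Ecpas, Sem1, Ckm, Ptprc and members named where a call changed with a library fall partly outside this rule and were chosen after their values were seen. Alternatives covered the pseudocount, the filter, scaling, moderation, weights, the groups fitted, a replicate block and leaving out libraries. One gene of the interferon list is not reported here.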

Additional observations from a re-analysis of the deposited data

Results flagged for a closer look

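Of 153 sets of 5 or 7 libraries examined, 11 held a library far from the rest by Dixon's criterion, and chance alone marks about 1 set in 20. Rolipram 2 was far above the other rolipram libraries in Psma3 (63.6 RPKM), Psmb3 (280.6), Psmb5 (74.4), Psmb6 (304.1) and Psmc5 (196.0), all constitutive 20S or 19S subunits, and it was the shallowest library, with an estimated 16.5 M (mega) reads. Control 1 was high in Psmb6 (188.7 RPKM) and control 5 in Psmd2 (95.2 RPKM). Control 7 was high in the immunoproteasome subunits Psmb8 (8.97 RPKM) and Psmb9 (4.60 RPKM) and in the log2 ratios of Psmb8 over Psmb5 (-1.71) and Psmb9 over Psmb6 (-4.96). The same library had Ptprc at 8.37 RPKM, against 0.14 to 0.76 in the other controls. The part of leukocyte RNA in these values was not tested.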

How the results depend on the processing

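For vehicle against control, 35 members higher and 2 lower stood in every fit that left out 1 library, and 5 were lower under quantile normalisation, where Psmg4 turned to -0.0013 (adjusted p = 0.989). For rolipram against vehicle, the main 8 calls (1 higher, 7 lower) became 18 with quantile normalisation (17 lower), 3 with only the 2 groups in the fit (0 higher, 3 lower), 22 with array weights (3 higher, 19 lower) and 16 with a replicate block (3 higher, 13 lower). Without the deepest libraries, vehicle 3 and rolipram 1, left out after seeing the data, 3 passed (2 lower). Leaving out 1 library gave 5 to 21 calls, 1 to 3 higher and 4 to 18 lower; Psme4 fell in all of these alternatives. For rolipram against control, 1 member lower became 2 with a pseudocount of 4, median-of-ratios scaling, 2 groups, array weights or without the deepest libraries, and 3 with quantile normalisation; leaving out 1 library gave 36 to 39 calls, 35 to 37 higher and 1 to 2 lower. Among all 11141 genes, quantile normalisation gave 1179 higher and 796 lower for rolipram against vehicle, where the main fit gave 1090 and 816. For the other refits no share of all genes is given here, so their member counts have no background beside them. The cause of these shifts was not tested.

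Whether the numbers of the libraries pair them was not settled: 5 of 17 same-numbered pairs had correlated deviations above 0.1 (range -0.36 to 0.39), and 5 libraries correlated best with their own number. Control and vehicle 4, 5, 6 and 7 gave 0.30, 0.21, 0.15 and 0.20, and vehicle and rolipram 3 and 4 gave -0.36 and -0.20. No chance level was computed for these values, so a shared batch cannot be told apart. With group medians in place of means, exact permutation tests no longer passed for Psmb9/Psmb6 (-0.80, adjusted p = 0.206) and Psme2/Psme3 (-0.36, adjusted p = 0.20) in vehicle against control, nor for Psmb8/Psmb5 (-0.51, adjusted p = 0.136) and Psmb9/Psmb6 (-0.38, adjusted p = 0.145) in rolipram against control. Without control 7 and vehicle 6, Psme2/Psme3 gave -0.45. Leaving out 1 library moved the log2 ratio differences over these ranges. In vehicle against control they were -1.10 to -0.63 for Psmb8/Psmb5, -1.32 to -0.87 for Psmb9/Psmb6, -1.53 to -1.20 for Psmb10/Psmb7, -1.46 to -1.22 for Psme1/Psme3 and -0.56 to -0.38 for Psme2/Psme3. In rolipram against vehicle they were -0.11 to 0.30, 0.14 to 0.54, 0.21 to 0.54, 0.27 to 0.52 and 0.32 to 0.53 in the same order, and in rolipram against control -0.87 to -0.54, -0.87 to -0.54, -1.04 to -0.91, -1.03 to -0.85 and -0.14 to 0.05. Among the 46 members in a proteasome class, depth limits Psmb9 most, with an estimated 50.3 reads in its lowest library. Psmc3ip, outside the classes, had 19.3.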
